A study of Gallus gallus with 3 samples.

Results

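The regions described here are 1091 H3K4me3 peaks of the embryonic chicken neural tube that H3K27me3 covers only in part. They were chosen by peak positions alone. A member lies on a numbered chromosome, shares at least 1 bp with an H3K27me3 peak, does not lie wholly inside one, and does not wholly contain one. It therefore has at least 1 edge that an H3K27me3 peak crosses, and some length that H3K27me3 leaves uncovered. Members made up 9.65% of the 11302 H3K4me3 peaks on numbered chromosomes (95% Wilson interval 9.12 to 10.2%), in a list of 12414 peaks in all. The share was 3.73% when edges within 100 bp counted as inside and 2.46% among peaks no lower than the median score of their list. The other relations on these chromosomes were 739 H3K4me3 peaks wholly inside an H3K27me3 peak, 225 that contained one and 9247 without any. Among the 2055 peaks with overlap, members were the most numerous relation, at 53.1% (interval 50.9 to 55.2%). This ranking depended on the treatment of edges. With edges within 100 bp counted as inside, 422 members remained, fewer than the 739 peaks wholly inside by the main rule.

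The tissue came from wild-type White Leghorn embryos of Hamburger-Hamilton stage HH30, and their eggs were held at 38.5 °C and 70% humidity. There was no mutant, treatment or second stage, and the sources used here do not say how many embryos were pooled. Dissociated cells were fixed for 10 min in 1% formaldehyde, and sheared chromatin was precipitated with an antibody against H3K4me3 (Abcam ab8580) or H3K27me3 (Millipore 07-449). Each mark has 1 library, so no value has a replicate check and no test or p-value is given. The intervals below cover counting error only and treat neighbouring peaks as independent. The lists hold no read counts, so read depth is unknown, and where no peak is listed the mark is not shown to be missing.

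H3K4me3 is written by the SET1 and MLL methyltransferases and marks promoters, mostly those rich in CpG, that are active or held ready for activity. H3K27me3 is written by Polycomb repressive complex 2 and spreads over silent genes, among them many that encode developmental regulators. Promoters that carry both marks are termed bivalent and are common at such genes in progenitor cells. The neural tube mixes progenitors and neurons, and the marks were mapped in separate precipitations, so an overlap of peaks does not tell whether both marks sat on 1 nucleosome, or even in 1 cell. Positions are on galGal4 and count from 1. The peaks were not assigned to genes, and no sequence is shown, because no galGal4 genome or annotation was used.

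Although the members are only partly covered, most were covered nearly from end to end under the main rule. The median member had 95.5% of its length under H3K27me3 (95% interval of the median 94.0 to 96.5%), with quartiles of 72.9 and 98.5% and a range from 0.136 to 99.9%. More than 90% of the length was covered in 656 members (60.1%), and at most 50% in 130 (11.9%). In base pairs, the median member had 1016 bp covered and 58 bp uncovered, with quartiles of the uncovered length at 15 and 413 bp. These values follow from the positions that chose the members and are a description. The median covered share was 66.8% when edges within 100 bp counted as inside and 74.0% with peaks merged within 1 kb. Among peaks no lower than the median score of their list it was 83.8%.

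Within this set H3K27me3 usually came in from 1 side, which the rule favours. An H3K4me3 peak covered over both edges by a single H3K27me3 peak counts as wholly inside (739 peaks) and is not a member. H3K27me3 crossed 1 edge in 1055 members (96.7%; Wilson interval 95.5 to 97.6%) and both edges, as separate peaks, in 36 (3.30%; 2.39 to 4.53%). The share with both edges crossed depended on the rule, from 0.520% with peaks merged within 1 kb to 5.92% with edges within 100 bp counted as inside. The crossed edge was the one with the lower coordinate in 531 members (50.3%; 47.3 to 53.3%) and the higher in 524, an even split along the assembly. The lists carry no strand, so neither edge can be called upstream or downstream. The H3K27me3 peaks that crossed 1 edge were 1046 distinct peaks, of which 9 reached the facing edges of 2 members.

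On a log scale, the lengths at the uncovered edge crowded at short and at long values. The stretch without H3K27me3 was at most 100 bp in 593 of the 1055 members covered at 1 edge (56.2%; 53.2 to 59.2%), more than that but at most 300 bp in 152 (14.4%), and over 300 bp in 310 (29.4%; 26.7 to 32.2%). These limits were set after the lengths had been seen. The crowd of long values depends on the log scale, as the class over 300 bp was widely spread, with quartiles of 547 and 1165 bp. The share with at most 100 bp fell to 26.9% when peaks within 1 kb were merged and to 34.1% among peaks no lower than the median score of their list. The shortest class was concentrated further: 331 members (31.4%) had 6 to 20 bp uncovered, and 164 (15.5%) had 11 to 15 bp. At the covered edge of the same members, H3K27me3 ran 6 to 20 bp past H3K4me3 in 29 members (2.75%). At the nearer edge of peaks wholly inside H3K27me3, it ran 6 to 20 bp further in 20 of 739 (2.71%). By the rule, H3K4me3 cannot extend past H3K27me3 at either of these edges. These shares are therefore for the opposite offset and cannot show whether the short uncovered end is confined to the uncovered edge. Edges of containing peaks were not measured.

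**Figure D1:**
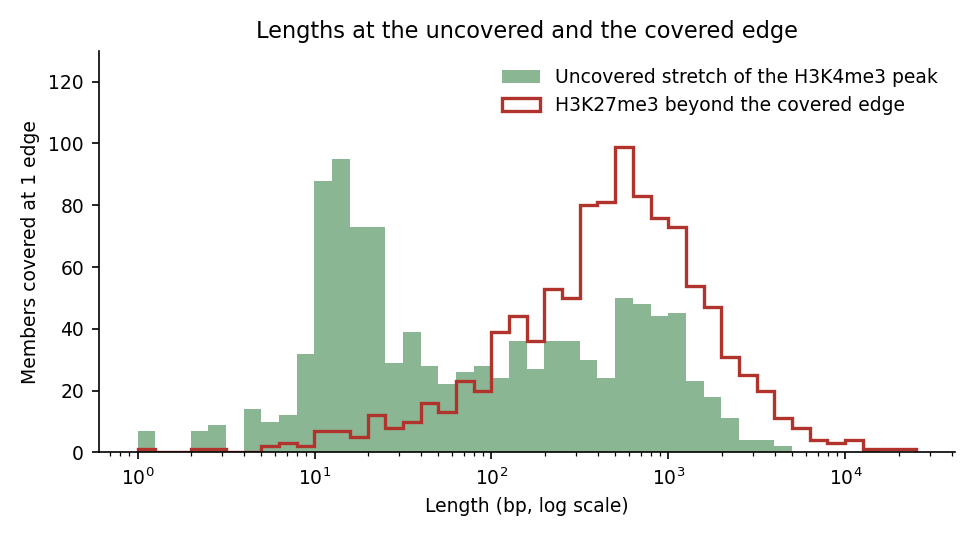
Number of members covered at 1 edge (n = 1055) by length on a log scale, for the uncovered stretch of the H3K4me3 peak (filled green) and for the run of H3K27me3 beyond the covered edge (red line). On this scale the uncovered stretch has 1 crowd near 6 to 20 bp and another above 300 bp, while the run has a single broad crowd around its median of 514 bp.

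Beyond the covered edge, H3K27me3 typically extended by less than the width of the member. The run from the edge to the end of the crossing H3K27me3 peak had a median of 533 bp (485 to 573 bp) and quartiles of 219.5 and 1078 bp. Where both edges were crossed, only the longer extent was counted. It exceeded 1 kb in 300 members (27.5%), 5 kb in 24 (2.20%), 10 kb in 7 and 20 kb in 1. Following H3K27me3 further, across gaps of at most 1 kb, gave a median of 578 bp and 53 members (4.86%) past 5 kb. The chain held more than 1 peak in 105 members (9.62%). The crossing peak was wider than the H3K4me3 peak in 794 of the 1055 members (75.3%; 72.6 to 77.8%), and the median crossing peak had 66.5% of its length inside the member.

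Many of the nearly complete overlaps ended at places where both marks stopped and then both started again. A shared break is used here for an uncovered edge beyond which the next H3K4me3 peak and the next H3K27me3 peak both begin within 1 kb. Such a break lay next to 208 of the 593 members with at most 100 bp uncovered (35.1%; 31.3 to 39.0%), 8 of 152 in the middle class (5.26%) and 3 of 310 with over 300 bp uncovered (0.97%). This contrast, and that for H3K27me3 alone below, can follow in part from the rule. Where H3K27me3 resumed before the uncovered edge, the peak counted as covered at both edges or as containing. Whatever H3K27me3 did, H3K4me3 resumed within 1 kb of the uncovered edge in 300 of the 593 (50.6%), against 23 of the 593 (3.88%) on the covered side. For H3K27me3 beyond the uncovered edge, the shares were 314 of 593 (53.0%) and, with over 300 bp uncovered, 7 of 310 (2.26%). Close H3K4me3 neighbours of these members thus lay mainly on the uncovered side.

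**Figure D2:**
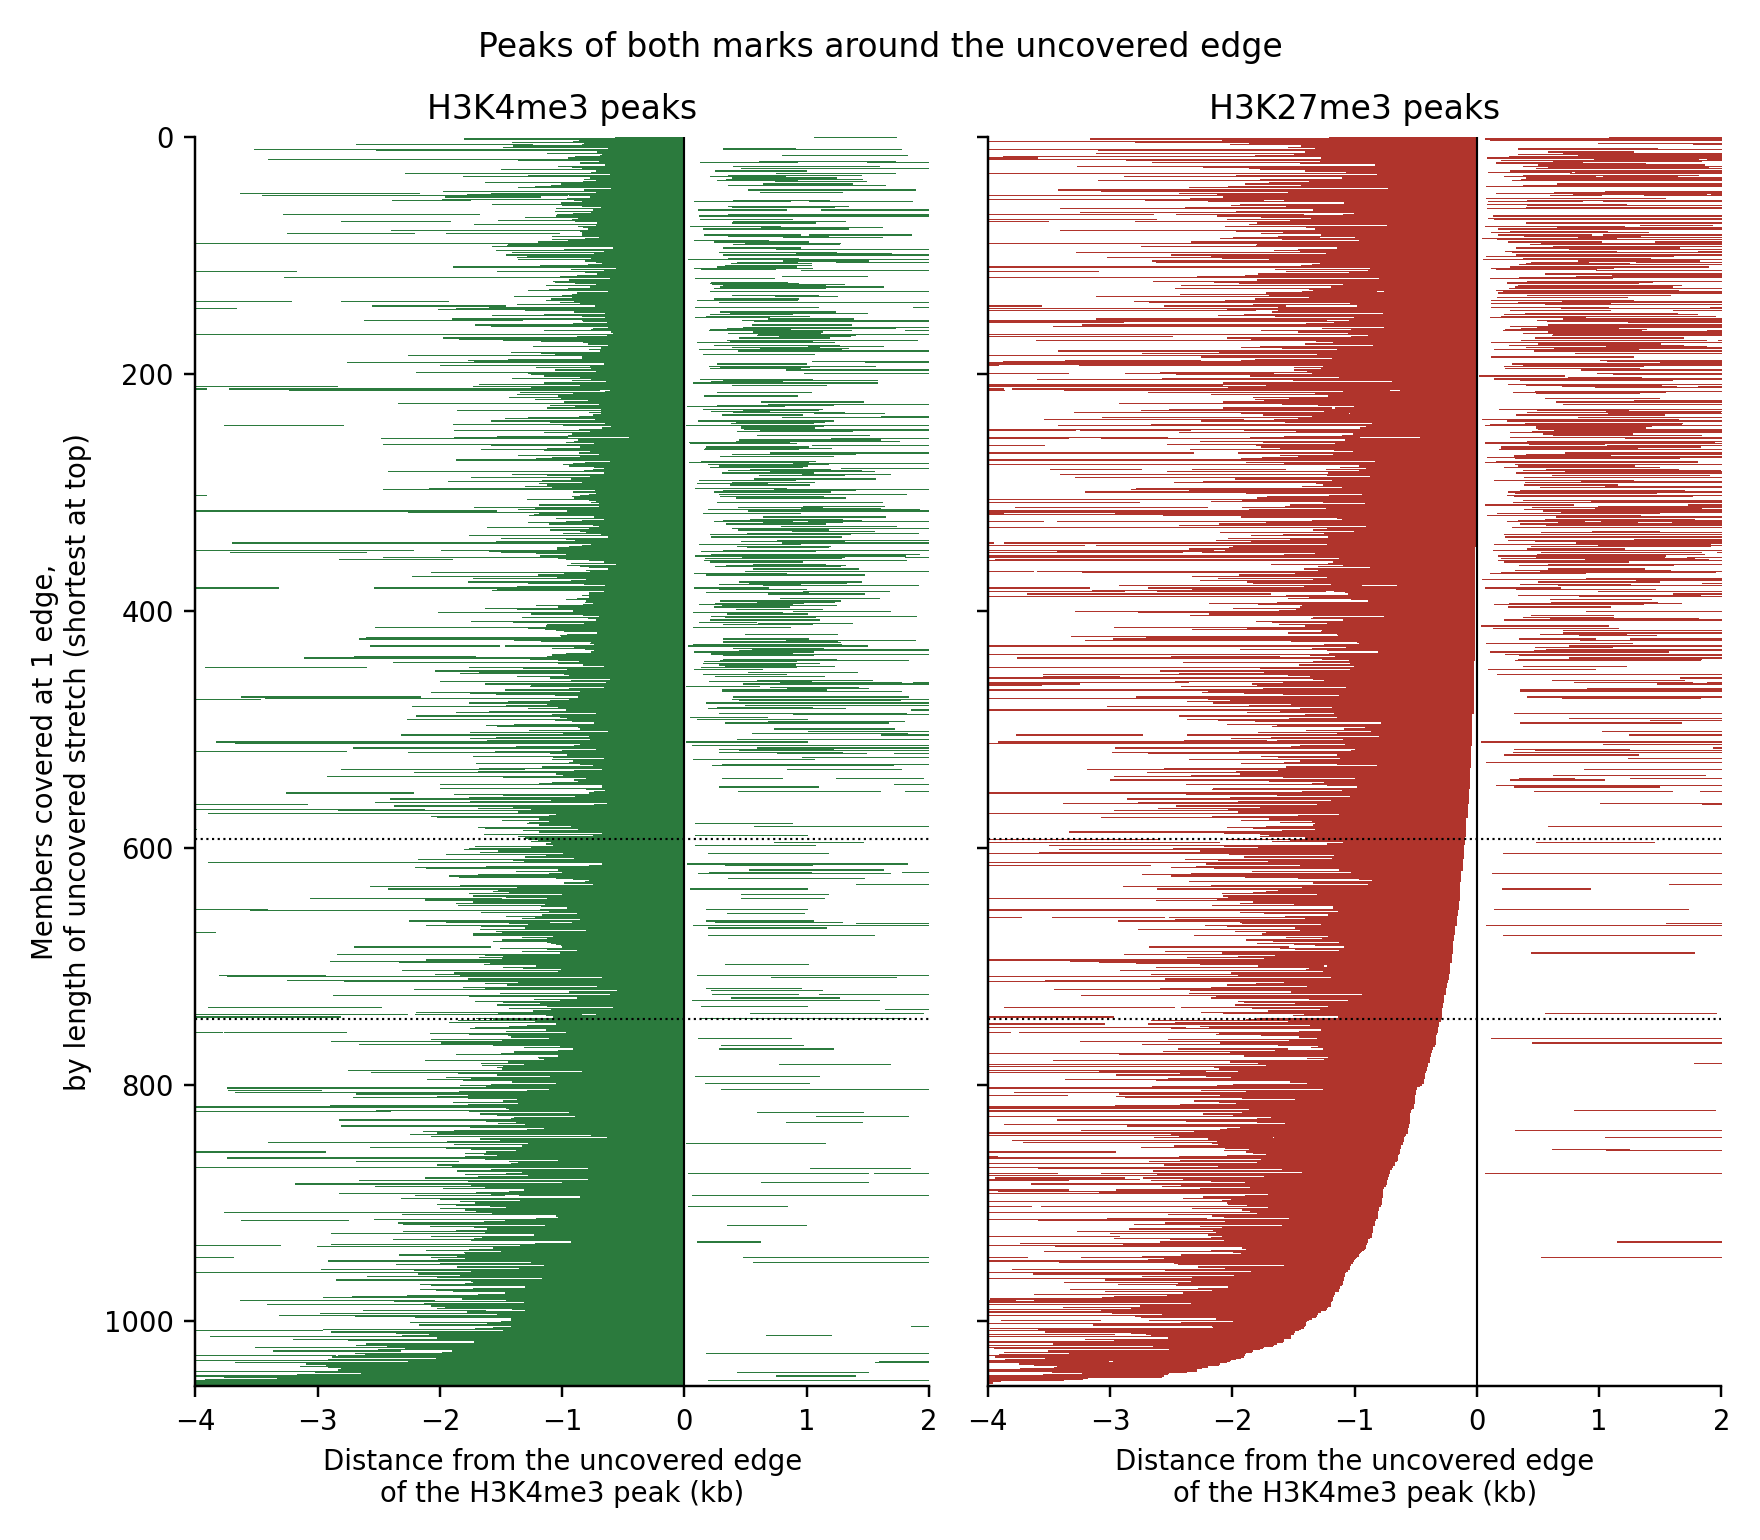
Position of H3K4me3 peaks (green, left) and H3K27me3 peaks (red, right) around the uncovered edge of each member covered at 1 edge, in kb, with members in order of uncovered length and dotted lines at 100 and 300 bp. In the upper 593 rows both marks stop at the edge and often resume within 1 kb on its far side, whereas in the lowest 310 rows H3K27me3 ends inside the H3K4me3 peak and few peaks follow.

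The far sides of the breaks mirrored the near sides. Of the 219 members at a shared break, 210 (95.9%; 92.4 to 97.8%) had the resuming edges of both marks within 100 bp of each other. This is a description: where the next H3K4me3 peak is itself a member, the distance is that member's own uncovered stretch, and a break between a pair of members is counted from both sides. The interval without either mark had a median of 327 bp, quartiles of 207 and 491.5 bp and a range from 16 to 980 bp. On the far side H3K27me3 began a median of 14 bp further from the member than H3K4me3 did (quartiles 11 and 20 bp), which again left a short end of H3K4me3 uncovered. The next H3K4me3 peak was itself a member with the opposite edge uncovered in 171 of the 219 (78.1%). It contained an H3K27me3 peak in 34 and lay wholly inside one in 12. The members bordered 134 distinct breaks, 86 of them with a member on each side. Since 1 break can so produce a pair of members, these are not independent regions. What lies in the breaks was not examined.

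The 3 pairs below were picked for their width after their values had been seen, as examples of a break. On chromosome 9, a member from 11380828 to 11385343 (4516 bp) with 9 bp uncovered faced one from 11385853 to 11386616 (764 bp) with 20 bp uncovered. H3K4me3 was interrupted there for 509 bp and H3K27me3 for 538 bp. On chromosome 4, members from 32451606 to 32452878 and from 32453682 to 32457377, with 14 and 19 bp uncovered, were separated by 803 bp without H3K4me3 and 836 bp without H3K27me3. The shortest interruption of the 3 was on chromosome 8, where 16 bp without H3K4me3 separated members from 11467188 to 11468175 and from 11468192 to 11472012. H3K27me3 was interrupted there for 76 bp. In each pair the wide peak and its narrow neighbour differed in score, at 1457 and 164.25, at 2330 and 289.03, and at 3100 and 283.65. As the score rises with width and the pairs were picked for width, this difference follows in part from the choice.

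Close H3K4me3 neighbours were as frequent for members as for peaks that contain H3K27me3, and less frequent in the other relations. Another H3K4me3 peak lay within 1 kb of 34.6% of members (31.9 to 37.5%), of 35.1% of containing peaks (29.2 to 41.6%), of 9.47% of peaks wholly inside H3K27me3 (7.57 to 11.8%) and of 25.3% of peaks without H3K27me3 (24.4 to 26.2%). The breaks touch other values too: without the members beside them, 872 remained, with a median covered share of 90.8%, and at most 100 bp was uncovered in 46.1% of those covered at 1 edge.

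Members with a short and with a long uncovered stretch differed in both marks. The authors' score per peak, which is used only within a list and whose scale is not named, rises with peak width. The median H3K4me3 score was 293.6 (256.5 to 326.5) with at most 100 bp uncovered, 539.5 (431.3 to 734.2) in the middle class and 1156 (991.9 to 1426) with over 300 bp uncovered. The H3K27me3 score of the crossing peak ran the other way, from 409.6 (355.9 to 464.1) through 193.3 (156.8 to 225.0) to 153.0 (130.3 to 184.7). H3K4me3 width rose along these classes, from 1017 bp (962 to 1054 bp) to 1426.5 and 1787 bp (1736 to 1868 bp), while the crossing H3K27me3 peaks had similar median widths of 1710, 1735.5 and 1675 bp.

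Width moved with both the H3K4me3 score and the uncovered stretch, so the scores were also compared within width classes. Among members of 2000 bp or more, the median score was 1199 (853.1 to 1556) with at most 100 bp uncovered and 2243 (1936 to 2655) with over 300 bp. Between 1500 and 2000 bp the medians were 685.4 and 1033, and their intervals did not overlap either. Below 1500 bp the intervals overlapped, and below 1000 bp the order of the medians was reversed, at 139.4 with at most 100 bp uncovered and 118.1 with over 300 bp (13 members). The contrast in H3K27me3 score was present in each of 4 classes of H3K27me3 width, although in the widest class the intervals overlapped, with medians of 1117 (883.0 to 1332) and 694.2 (465.1 to 917.2). Without the members at shared breaks, the H3K27me3 medians were 337.3 (281.5 to 392.7) with at most 100 bp uncovered and 152.5 (126.5 to 185.5) with over 300 bp, and the H3K4me3 medians were 339.0 and 1177.

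The members at breaks were narrower, with lower H3K4me3 and higher H3K27me3 scores. Among members with at most 100 bp uncovered, the 208 at a shared break had a median width of 857 bp (828 to 930 bp) and the other 385 one of 1109 bp (1059 to 1187 bp). Their median H3K4me3 scores were 192.0 (153.8 to 256.5) and 339.0 (306.4 to 406.9), and their median H3K27me3 scores 555.5 (473.2 to 698.9) and 337.3 (281.5 to 392.7). The H3K4me3 scores were not compared within width classes here, so their difference cannot be told apart from that in width. Among all members with at most 100 bp uncovered, the median was 139.4 below 1000 bp and 391.9 between 1000 and 1500 bp. H3K27me3 ran a median of 693.5 bp past the covered edge at breaks and 458 bp elsewhere. The uncovered stretch was 6 to 20 bp in 72.1% of those at a break and in 47.0% of the others. An almost aligned edge was therefore frequent away from breaks as well, and 186 of those 385 (48.3%) had neither mark within 1 kb of it.

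**Figure D3:**
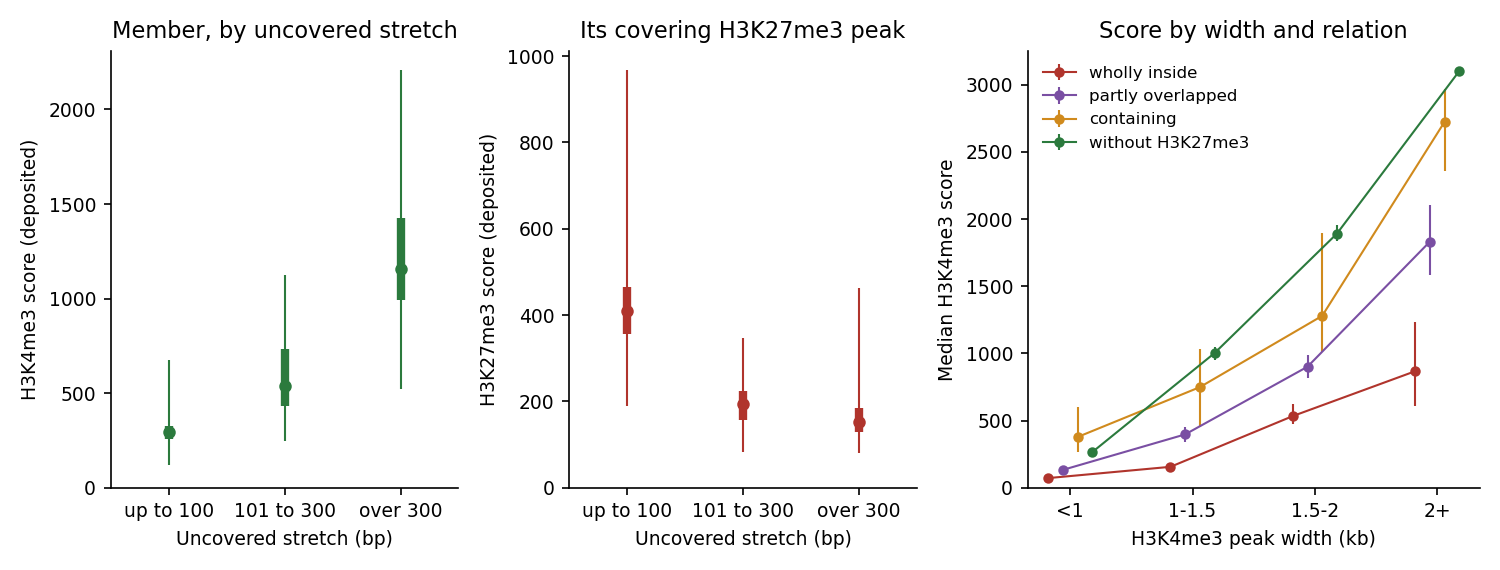
Left and middle, deposited scores of members covered at 1 edge and of their crossing H3K27me3 peaks, by uncovered stretch (n = 593, 152 and 310), as medians with 95% intervals (thick) and quartiles (thin). Right, median H3K4me3 score with 95% interval by peak width for the 4 relations to H3K27me3. H3K4me3 scores rise and H3K27me3 scores fall with the uncovered stretch, and members lie between peaks wholly inside H3K27me3 and peaks without it in each width class.

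In H3K4me3 score, members lay between peaks wholly inside H3K27me3 and peaks without it. Members had a median of 484.2 (431.3 to 539.1), above the 262.7 (236.6 to 296.5) of peaks wholly inside H3K27me3 and 0.367 times the 1320 (1284 to 1354) of peaks without H3K27me3. That ratio was 0.662 when edges within 100 bp counted as inside and 0.850 among peaks no lower than the median score of their list. The 0.850 is not an independent check, since that filter removes low scores from both sets before the scores are compared. The order held within each of 4 width classes; between 1000 and 1500 bp, for instance, the medians were 156.4, 397.7 and 1002. Members had a median width of 1335 bp (1276 to 1391 bp), against 1447 bp (1411 to 1486 bp) wholly inside and 1454 bp (1439 to 1470 bp) without H3K27me3. Without the members at shared breaks, their median was 1464.5 bp (1416 to 1518 bp), an interval that included both of the other medians. The other relations were not reduced in the same way. Containing peaks were the widest, at 1847 bp, as their definition favours width. Their median H3K4me3 score was 1296 (1073 to 1654), an interval that included the 1320 of peaks without H3K27me3. Below 1000 bp the median of 34 containing peaks was above that of peaks without H3K27me3, but the intervals overlapped. The medians were 377.9 (269.9 to 603.6) and 265.3 (246.8 to 289.5). In the wider classes the median of containing peaks was the lower one, with intervals that overlapped except at 2000 bp and over. The score of exactly 3100, which many of the highest-scoring peaks share, was given to 44 members (4.03%) and to 1312 peaks without H3K27me3 (14.2%).

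The share of members fell as the H3K4me3 score rose. When all H3K4me3 peaks on numbered chromosomes were divided into 10 score classes of equal number, members made up 17.9% of the lowest class and 2.83% of the highest. Peaks wholly inside H3K27me3 fell more steeply over these classes, from 17.2 to 0.265%, so the fall was not particular to members. In the lowest class 78.1% of the members covered at 1 edge had at most 100 bp uncovered. In the highest class this was 1 of 30, while 27 of 30 (Wilson interval 74.4 to 96.5%) had over 300 bp uncovered. The median covered share was 97.6% in the lowest class and 50.3% in the highest. The score classes were not matched for width. Among members covered at 1 edge, width had a Spearman's rho of 0.75 with the score and 0.54 with the uncovered stretch. The trends over these score classes were therefore not separated from width. Within each of 4 width classes, members had a lower median score than peaks without H3K27me3. The H3K4me3 score contrast by uncovered stretch had separate intervals only at widths of 1500 bp and over. Peaks tied at 3100 were divided between the highest classes by their order in the list.

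**Figure D4:**
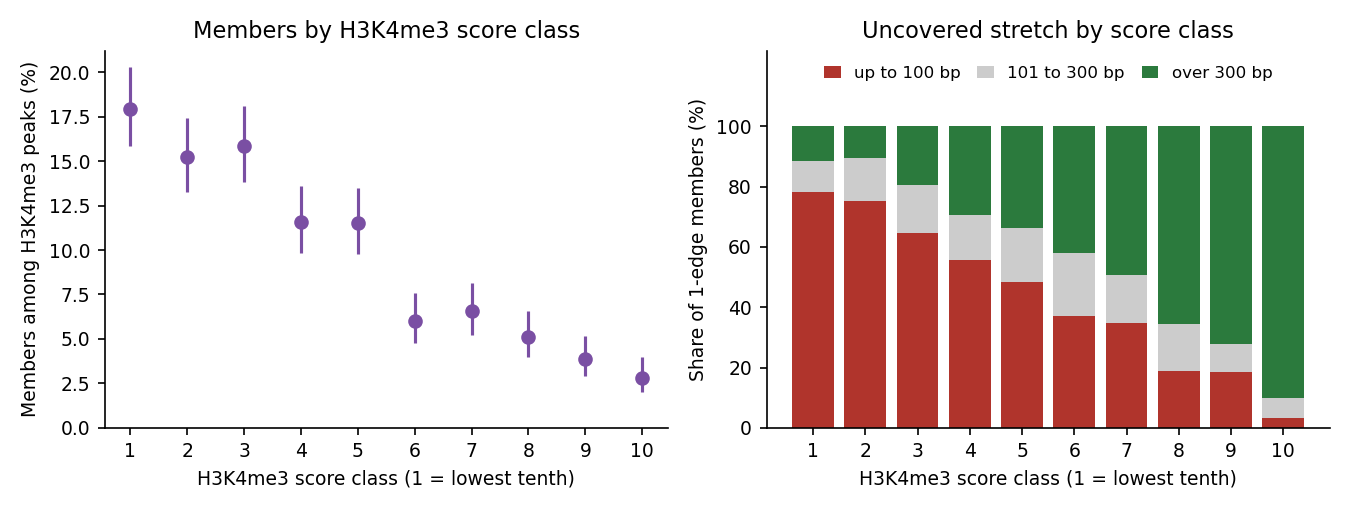
Left, members as a share of H3K4me3 peaks in each of 10 score classes, with 95% Wilson intervals. Right, uncovered stretch of the members covered at 1 edge in the same classes. The share of members falls from 17.9 to 2.83%, and the share with over 300 bp uncovered rises from 11.4% to 27 of 30 members. The score classes are not matched for peak width.

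Across the 1055 members covered at 1 edge, Spearman's rho of the uncovered stretch was 0.48 with the H3K4me3 score and -0.37 with the H3K27me3 score. The H3K4me3 score had a rho of 0.75 with H3K4me3 width. The run beyond the covered edge had a rho of 0.49 with the H3K27me3 score and -0.05 with the uncovered stretch, and the scores of the marks had one of -0.08 with each other. These correlations are across regions of the same libraries, and score and length share the peak boundaries, so they are descriptions without a test.

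The 5 widest members had between 9.94 and 61.3% of their length under H3K27me3. The widest, chr7:15780947-15795153, spanned 14.2 kb, of which 9.94% was covered, and H3K27me3 ran 11.6 kb past its higher edge in a peak that scored 3100. It was followed by chr2:89394235-89400084 (5.85 kb, 33.4% covered), chr2:32791447-32797225 (5.78 kb, 41.5%), chr1:140326948-140332454 (5.51 kb, 17.9%) and chr1:53760961-53766167 (5.21 kb, 61.3%). H3K27me3 ran past the edges of these 4 by only 424, 699, 1038 and 23 bp. Wide H3K4me3 peaks thus met a long H3K27me3 block in 1 of these 5 places.

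The members with the longest runs were between 1155 and 3267 bp wide. At chr2:24583397-24584622 H3K27me3 left 18 bp of a 1226 bp peak uncovered and ran 22.1 kb past the other edge. At chr9:12412079-12413948 it left 15 bp uncovered and ran 19.0 kb, and at chr18:2020889-2024155 it left 11 bp uncovered and ran 12.4 kb. These 3 H3K4me3 peaks had scores of 625.06, 562.93 and 703.17 and stood almost wholly within the end of a long H3K27me3 peak that scored 3100. The remaining 2 of the 5 longest met the block only at its end: chr17:5963384-5965094 was covered over 7.31% and chr13:12659813-12660967 over 5.19%, with runs of 14.6 and 12.3 kb. By the rule, the H3K27me3 peak ended inside the member in all 5 cases. The end lay near the uncovered edge in 3 and near the crossed edge in 2. The chromosome 18 block did not end there altogether, since H3K27me3 resumed 340 bp past the uncovered edge.

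The members with the smallest covered share only touched H3K27me3. At chr15:11127912-11129382 the overlap was 2 bp (0.136%) and at chr5:36249718-36251136 it was 8 bp (0.564%). The next were chr3:66950477-66951892 (2.26%), chr13:461311-462239 (3.23%) and chr3:68400780-68402677 (3.37%). By base pairs the third smallest overlap was 22 bp, at chr4:56734896-56735520. The chromosome 3 peak at 66950477 bordered a chain of 7 H3K27me3 peaks that extended over 18.2 kb, and the chromosome 15 peak a single run of 4428 bp.

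At the edges of the rule, small shifts of a boundary decide membership. Just outside it, chr12:16069697-16071372 lay 0 bp from an H3K27me3 peak without overlap, chr20:10848566-10849549 lay 24 bp away and chr20:10316082-10318230 25 bp. At the other limit, 7 members had a single uncovered base, among them chr10:7483756-7485027, chr3:75578574-75579135 and chr4:37323335-37325133. Against these, 5 peaks counted as wholly inside shared an edge position with H3K27me3, among them chr1:65033354-65034387, chr2:98185702-98187583 and chr2:101497680-101500237. In all, 38 members had at most 5 bp uncovered and 7 members had at most 50 bp of overlap.

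The 36 members covered at both edges were flanked by separate H3K27me3 peaks, mostly with a short opening between them. They were wider than members covered at 1 edge, with a median of 1946 bp (1767 to 2185 bp) against 1300 bp (1255 to 1365 bp). The rule favours width here, since such a member holds the ends of separate H3K27me3 peaks. Their median uncovered length was 79.5 bp, with quartiles of 32.25 and 208.75 bp and a range from 5 to 1343 bp. Their median covered share of 95.8% was close to the 95.3% of members covered at 1 edge. The widest, chr1:79854482-79858509 (4028 bp), had 36 bp uncovered and H3K27me3 runs of 751 and 12 bp past its edges. At chr20:9496594-9500586 the opening was 100 bp and the runs 1207 and 8234 bp. The next were chr1:73341235-73344670, chr27:1420765-1424162 and chr23:5459699-5462438, with 95.5, 72.9 and 98.1% covered. The opening of 922 bp on chromosome 27 was the longest of these 5.

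Members were found on all chromosome sizes, with differences in their form. They made up 10.0% of H3K4me3 peaks on chromosomes 1 to 5 (9.28 to 10.8%), 11.1% on chromosomes 6 to 10 (9.82 to 12.6%) and 8.26% on chromosomes 11 and above (7.41 to 9.20%), the microchromosomes. Their share of all overlapping peaks was alike, at 53.7, 52.5 and 52.4%. On the microchromosomes H3K27me3 ran further past the edge, with a median of 664 bp (598 to 730 bp) against 464.5 bp (407 to 506 bp) on chromosomes 1 to 5. There, too, fewer members covered at 1 edge had at most 100 bp uncovered, at 48.3% (42.6 to 54.0%) against 60.3% (56.1 to 64.2%), and the median covered share was 90.9% against 96.5%.

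**Figure D5:**
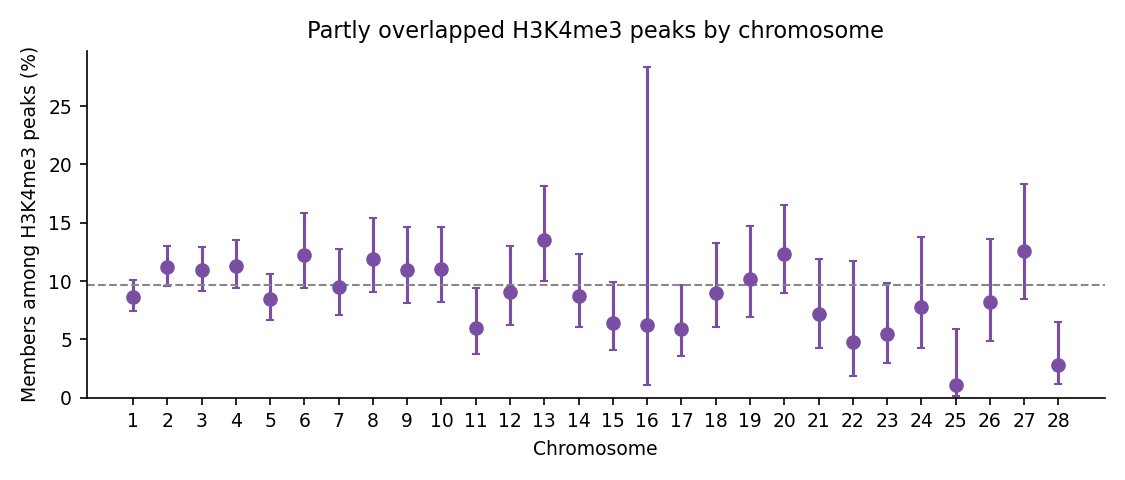
Members as a share of H3K4me3 peaks on each of the 28 numbered chromosomes, with 95% Wilson intervals. The intervals of chromosomes 11, 25 and 28 lie below the overall 9.65% and that of chromosome 13 lies above it, while the others include it.

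Single chromosomes ranged from 1 member among 92 H3K4me3 peaks on chromosome 25 (1.09%; 0.192 to 5.90%) and 5 among 176 on chromosome 28 (2.84%), through 5.99% on chromosome 11, to 13.6% on chromosome 13 (9.995 to 18.1%). The intervals are not corrected for the 28 chromosomes compared, and chromosome 16 held only 16 H3K4me3 peaks.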

How the data were processed

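For each mark the authors deposited 1 list of peaks with a start, an end and a score. Per the submitters' processing notes, BWA, MACS2 and galGal4 were used, and per the file headers the peaks come from MACS run in Galaxy. The deposited score has no named scale, spanned 50.01 to 3233.06 among H3K4me3 peaks and was used only within a list. Filters and the control used for peak finding are not given in the sources used here, and the Input was not analysed here. Any starts below 0 were set to 0 before the peaks were sorted.

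H3K4me3 peaks were sorted by position into the 4 relations with Python 3.11.15, pandas 2.3.3 and NumPy 2.4.6, and the sorting was tested on simulated data against a base-by-base count. Shares carry 95% Wilson intervals, and medians carry 95% order-statistic (exact binomial) intervals from SciPy 1.17.1. Differences between sets are described by these intervals and were not tested. Regions were named by rule: the 5 widest, the 5 with the longest run, the 5 with the smallest covered share, the 5 widest covered at both edges, and the 3 nearest each limit. The break examples fall outside that rule. The members and all classes were chosen with earlier results of these data known. Alternatives covered the overlap rule, the edge tolerance, the score, merging and the sequences included. Gene names were not used, as the only gene table available was for a different assembly.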

Additional observations from a re-analysis of the deposited data

How the results depend on the processing

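With 1 library per mark there were no replicates to leave out, and no paired analysis was possible because the groups share no pairs. The even split between lower and higher edges held under each alternative run. An overlap of 10% of the H3K4me3 peak or the inclusion of all sequences left the summary values that carry an interval within their error. The count of members, which carries none, was 1069 and 1152 in these settings. Other values depended on how edges were treated. Counting edges within 100 bp as inside left 422 members (3.73% of H3K4me3 peaks), with a median covered share of 66.8%, 5.92% covered at both edges, a median run of 627 bp, a median width of 1702.5 bp and a score ratio to peaks without H3K27me3 of 0.662. Restricting each list to peaks no lower than its median score left 139 members (2.46%), with 83.8% covered, 0.719% at both edges, a run of 640 bp, a width of 2185 bp, a ratio of 0.850 and 34.1% with at most 100 bp uncovered. The ratio in that setting compares scores already cut at the median, so the filter itself moves it. Merging peaks within 1 kb gave 7.83%, 74.0% covered, 0.520% at both edges, a run of 470 bp, a width of 1785 bp, a ratio of 0.533 and 26.9% with at most 100 bp uncovered. An overlap of 50% of the shorter peak gave 8.95%, 96.5% covered, 1.68% at both edges, a run of 470 bp and 59.7% with at most 100 bp uncovered. Chosen after seeing the data, leaving out members at shared breaks gave 7.87%, 90.8% covered, a width of 1464.5 bp, a ratio of 0.455 and 46.1% with at most 100 bp uncovered, and limits of 50 and 200 bp for the short class gave 48.9 and 64.5%. The share with at most 100 bp uncovered and the lower-edge share were added after seeing the data. Under the edge tolerance the former has no value by construction. The score rises with width, 3100 is shared by many peaks, and peak boundaries carry no error in the lists, so differences of a few base pairs between edges have unknown precision. Read depth limits what either list can show and is unknown.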

Other observations

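Outside the numbered chromosomes, the same rule found 45 members among 608 H3K4me3 peaks on chromosome Z (7.40%; 95% Wilson interval 5.58 to 9.76%). The uncovered stretch was at most 100 bp in 10 of the 41 covered at 1 edge (24.4%; 13.8 to 39.3%), against 56.2% (53.2 to 59.2%) on the numbered chromosomes, a difference that was not tested. Their median covered share was 84.3% (66.2 to 91.8%), their median width 1693 bp and their median run 287 bp (182 to 495 bp). In a further group of 497 H3K4me3 peaks on other sequences, which does not hold every remaining peak, 16 were members (3.22%; 1.99 to 5.17%). Their median covered share was 92.7% and their median run 266.5 bp.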
